A study of Mus musculus with 12 samples.

Results

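Ribosomal protein genes encode the protein part of the cytoplasmic ribosome, and their RNA was examined in HSCs of WT and Pon2-/- mice. Members were taken by name, as all genes whose symbol begins with Rpl or Rps followed by a digit, together with Rplp0, Rplp1, Rplp2 and Rpsa. Symbols with -ps, the Rps6k kinases and Rps19bp1 were left out. This gave 92 genes of the 49585 gene identifiers in the counts, of which 49326 have a name. Of the 92 genes, 37 belong to the small (40S) and 55 to the large (60S) subunit by name. GENCODE lists 85 of them as protein-coding, 5 as processed pseudogenes and 2 as transcribed processed pseudogenes. At least 1 count was found for 90 genes, and 86 passed the filter on low counts. The exceptions without a count were Rpl3l, a striated muscle form of Rpl3, and the pseudogene Rps12l1.

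The data are RNA-seq counts of 6 WT and 6 Pon2-/- mice, all on the C57BL/6J background and aged 10 to 14 weeks, with WT mice obtained from Charles River. The study does not state that WT and Pon2-/- mice were littermates, so genotype and origin of the mice cannot be told apart. In Pon2-/- mice, a gene trap with a β-geo cassette sits in an intron of Pon2, which encodes paraoxonase 2, an intracellular enzyme with antioxidative function. The allele is present in every cell of these mice and is not restricted to HSCs. The sorted cells were Lin-, Sca1+, ckit+, CD135- and CD150+, a gate that the study describes as a mix of LT-HSC and MPP2 cells. Per mouse, 8 wells of 10 cells were used for Smart-seq2, which amplifies full-length cDNA without strand information, and counts are given per mouse.

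Each ribosome carries nearly every ribosomal protein once, and the genes are scattered over the genome but kept at coordinated levels. Their mRNAs begin with a run of pyrimidines that places their translation under mTORC1. HSCs are known for a low rate of protein synthesis, and loss of one copy of several of these genes causes Diamond-Blackfan anaemia, a failure of red cell production. The mouse genome also holds many processed copies of these genes, which arose from reverse-transcribed mRNA.

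The total count was 12967791 to 24228280 in WT and 14671353 to 23122382 in Pon2-/- samples. Levels are given as CPM, that is counts scaled to 1000000 per library after TMM scaling. In such bulk samples, fewer cells of a type and less RNA per cell cannot be told apart. Pon2 had 56.4 to 202 CPM in WT and 1.16 to 33.1 CPM in Pon2-/- samples without overlap, and its log2 fold change was -2.13 ± 0.57 (SE, edgeR adjusted p = 0.586). Without Pon2-/- replicate 5, which held the 1.16 CPM, it was -1.88 (edgeR adjusted p = 0.029). All 8 genes of the HSC list had counts in every sample. Granulocyte and monocyte markers summed to 315 to 9154 CPM in WT and 302 to 15240 CPM in Pon2-/- samples, and all 10 of them had counts in at least 1 sample. B lineage markers summed to 25.5 to 353 and 58.8 to 868 CPM. T lineage markers reached at most 57.7 CPM, with Cd3e, Cd8a, Cd8b1, Trac and Cd5 at 0, and erythroid markers at most 61.8 CPM, with Slc4a1 and Ermap at 0. Markers that the sort excludes summed to 10.6 to 66.7 and 35.4 to 112 CPM. The part of these cells in the values of ribosomal protein genes was not tested.

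Rps13 and Rpl15 have processed copies that differ between the genotypes, so these sequences are shown first. Rps13 (chr7:116331505-116334195, minus strand, GRCm38) encodes a protein of the small subunit. Rps13-ps1 (chr8:87047689-87048226, plus strand) is a processed copy that matches 520 of 522 aligned bases. Positions are counted from 1 at the 5′ end of the Rps13 transcript, and both differences, T499C and A517G, lie in its coding part. The stretch from 479 to 537 is given, with the differing bases in capitals, because it holds both differences of the aligned part.
Rps13: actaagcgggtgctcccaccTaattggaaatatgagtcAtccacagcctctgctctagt
Rps13-ps1: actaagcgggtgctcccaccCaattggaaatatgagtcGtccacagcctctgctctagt

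Rpl15 (chr14:18267823-18271391, minus strand, GRCm38) encodes a protein of the large subunit. Its copy Gm8420 (chr1:51940664-51941261, minus strand) matches 576 of 596 aligned bases. All 20 differences fall in the coding part of Rpl15. The stretch from 237 to 277 of the Rpl15 transcript holds 3 of them, G241A, C257T and G267A, again in capitals.
Rpl15: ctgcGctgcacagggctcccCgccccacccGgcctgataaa
Gm8420: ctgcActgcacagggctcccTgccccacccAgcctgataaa

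Promoters were compared for the 67 members found in the RefSeq table (GRCm38.p6). Each window of 300 bases ran from 250 before to 50 after the start, and both strands were searched. The polypyrimidine motif CTTTCC was found in 35 of 67 members (52.2%) and in 29.3% of all genes of the table. Within 30 bases before to 20 after the start, on the strand of the gene, it was found in 12 members (17.9%) and in 2.88% of all genes. The ETS-type motif CCGGAA was found in 36 members (53.7%) and in 16.7% of all genes. Mitochondrial ribosomal protein genes had CCGGAA in 58.0% and CTTTCC in 30.4%. The YY1-type motif AAGATGG was found in 10 members (14.9%), in 18.8% of mitochondrial ribosomal protein genes and in 7.28% of all genes. Near the start, CCGGAA was found in 17.9% of members, 17.4% of mitochondrial ribosomal protein genes and 3.04% of all genes. There, CTTTCC was found in 2.90% of mitochondrial ribosomal protein genes, and AAGATGG in 0 members and 0.644% of all genes. Stretches from 60 before to 20 after the start show a member with CTTTCC before the start, one with CTTTCC overlapping CCGGAA on the other strand, and Rps13 with none of these motifs. Capitals mark the motifs.
Rpl4 (chr9:64173327-64173406, plus strand): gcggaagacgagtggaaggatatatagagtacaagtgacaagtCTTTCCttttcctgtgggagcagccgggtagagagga
Rps27 (chr3:90213629-90213708, minus strand): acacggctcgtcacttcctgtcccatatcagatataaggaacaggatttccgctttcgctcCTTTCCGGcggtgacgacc
Rps13 (chr7:116334171-116334250, minus strand): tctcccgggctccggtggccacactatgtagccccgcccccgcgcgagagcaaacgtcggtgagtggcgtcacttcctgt

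Most ribosomal protein genes were abundant. Of the 90 genes with a count, 14 had a mean of 1000 CPM or more over the 12 mice, 64 had 100 to 1000 CPM, 9 had 1 to 100 CPM and 3 had less than 1 CPM. Levels between genes are compared per kilobase of exon. On this scale, the median was 332 CPM per kb over the 40S genes and 204 CPM per kb over the 60S genes with a count. Reads that map to several places are not counted, and most members have near-identical copies. The part of this in the levels and their order was not tested. Rplp1, which encodes an acidic protein of the stalk where elongation factors bind, was highest with 2230 ± 290 CPM per kb (SD, n = 12). Rplp0, which anchors this stalk, followed with 1529 ± 232 CPM per kb. Rpl32 had 1442 ± 107, Rpl36 had 1325 ± 128, Rpl4 had 1280 ± 94.7 and Rps27 had 1173 ± 115 CPM per kb. From Rplp0 down to Rps27, neighbours in this order differed by less than the larger of their SDs, whereas Rplp1 lay above Rplp0 by more than the SD of either. With the length of the longest transcript in place of all exons, 4 of these 6 genes stayed among the highest 6.

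The lowest levels belonged to pseudogenes, variant forms and Rpl24. Rpl24 encodes a protein of the large subunit, yet it had only 2.82 ± 2.65 CPM per kb. It shares 47.0% of its exon bases with Gm28037, a gene annotated at the same place, which was at 0 in all samples. STAR counts neither reads that overlap more than 1 gene nor reads that map to several places, and the part of this in the level of Rpl24 was not tested. Rpl23a, with 62.3% of its exon bases shared, had 50.4 CPM per kb, and Rpl13a, with 35.4% shared, had 20.6 CPM per kb. Rpl35 had 288 CPM per kb with 66.2% shared. Rps3a2, Rps3a3 and Rpl6l, all processed pseudogenes, had 4.53, 0.608 and 0.373 CPM per kb.

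**Figure D1:**
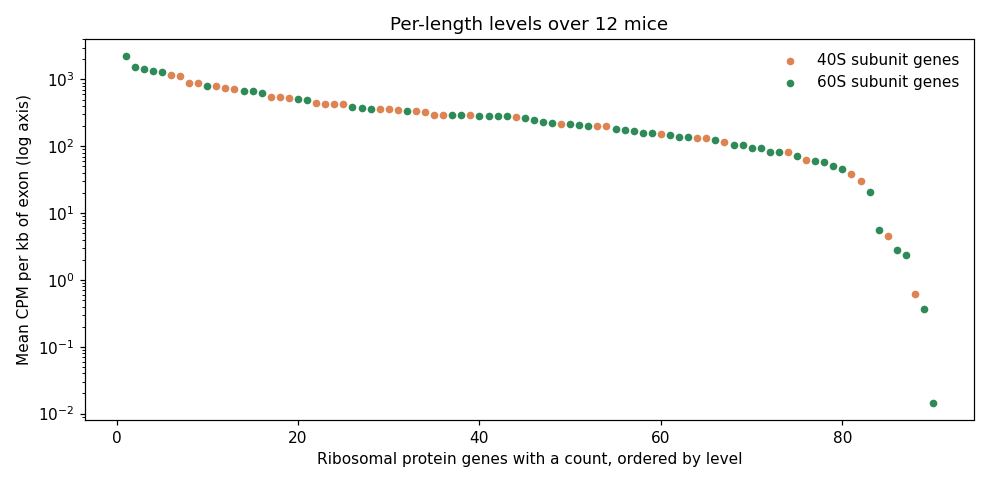
Mean CPM per kilobase of exon over the 12 mice (log axis) for the 90 ribosomal protein genes with a count, ordered from the highest to the lowest, with 40S and 60S genes in different colours. Rplp1 leads with 2230 CPM per kb, and the tail holds pseudogenes, variant forms and Rpl24.

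The comparison of the genotypes asked whether loss of Pon2 goes with another level of ribosomal protein RNA in HSCs. No ribosomal protein gene passed both thresholds (edgeR's quasi-likelihood test, FDR below 0.05 and absolute log2 fold change above 1), while 0.203% of the 11848 genes tested did. At an unadjusted p below 0.05, 3 of 86 members were found, and 3.13% of all genes tested. All 3 were lower in Pon2-/- HSCs, a direction found at this p in 1.43% of all genes. The median log2 fold change was -0.03 over the members and -0.01 over all genes tested, with 54 members below and 32 above 0. For 81 of 86 members the absolute log2 fold change was under 0.25. For 81 members the 95% interval lay within a log2 fold change of 1 in either direction, which held for 25.5% of all genes tested. Interval width depends on level, and at 100 CPM or more the interval lay within these limits for all 78 members and for 85.4% of the 2150 other genes. No member passed both thresholds with DESeq2 (1.77% of all genes with an adjusted p), DESeq2 without Cook's cutoff (3.68%) or limma voom (0.194%), nor with counts summed with copies in edgeR (0.162%) or DESeq2 (1.78%). No member was without overlap of the genotypes, and 0.633% of all genes were.

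**Figure D2:**
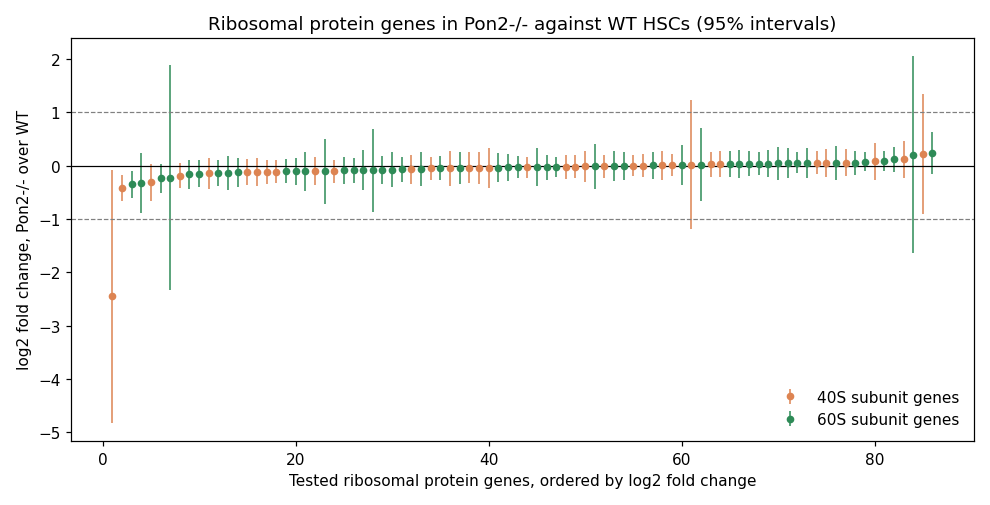
Log2 fold change of the 86 tested ribosomal protein genes in Pon2-/- over WT HSCs with 95% intervals, ordered by value, with dashed lines at a log2 fold change of 1 in either direction. All but 5 lie under 0.25 in size, and the lowest value is Rps4l at -2.45 with a wide interval.

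The median log2 fold change was -0.03 over 35 tested genes of the 40S subunit and -0.03 over 51 of the 60S subunit, with 22 and 32 genes below 0. The acidic stalk genes had values of 0.05 for Rplp0, -0.14 for Rplp1 and 0.12 for Rplp2. The 4 X-linked genes Rpl10, Rpl36a, Rpl39 and Rps4x lay between -0.11 and 0.01. The 12 tested members without a near-identical copy had a median of -0.07, and 11 of them were below 0.

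Rps13 had the smallest p of the members. It was found at 325, 423 and 487 CPM (lowest, median and highest) in WT and at 290.3, 305 and 332 CPM in Pon2-/- HSCs. The Pon2-/- samples were lower except that replicate 1 lay above WT replicate 3. The log2 fold change was -0.42 ± 0.12 (SE, 95% interval -0.67 to -0.17, edgeR adjusted p = 0.716). Over the alternatives the adjusted p ranged from 0.001 to 1.00. DESeq2 gave -0.41 with an adjusted p of 0.003, where 1.87% of the genes with an adjusted p passed an FDR of 0.05.

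Its copy Rps13-ps1 moved the other way. Rps13-ps1 had 0.484 to 1.02 CPM in WT and 102 to 143 CPM in Pon2-/- HSCs, with no overlap (log2 fold change 7.51 ± 0.32, edgeR adjusted p = 1.79e-08). The sum of both genes was 326, 424 and 488 CPM in WT and 392, 442 and 465 CPM in Pon2-/- HSCs, so the genotypes overlapped. The copy made up 0.129% to 0.208% of this sum in WT and 26.0% to 31.5% in Pon2-/- HSCs. With all copies of Rps13 added, the log2 fold change was 0.07 ± 0.12 (edgeR adjusted p = 1.00). With DESeq2, it was 0.08 (adjusted p = 0.999), an alternative chosen after seeing the data.

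Rpl15 showed the same arrangement. It had 491, 563 and 734 CPM in WT and 393, 445 and 514 CPM in Pon2-/- HSCs. The ranges overlapped between 491 and 514 CPM. The log2 fold change was -0.35 ± 0.12 (SE, 95% interval -0.61 to -0.09, edgeR adjusted p = 1.00). DESeq2 gave -0.35 with an adjusted p of 0.069. Without Cook's cutoff, its adjusted p was 0.038, where 3.8% of genes passed an FDR of 0.05. Gm8420 had 0 to 0.212 CPM in WT and 73.6 to 86.7 CPM in Pon2-/- HSCs. The sum of Rpl15 and Gm8420 was 491, 563 and 734 CPM in WT and 467, 525 and 600.2 CPM in Pon2-/- HSCs. With all copies added, the log2 fold change was -0.06 ± 0.12 (edgeR adjusted p = 1.00).

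**Figure D3:**
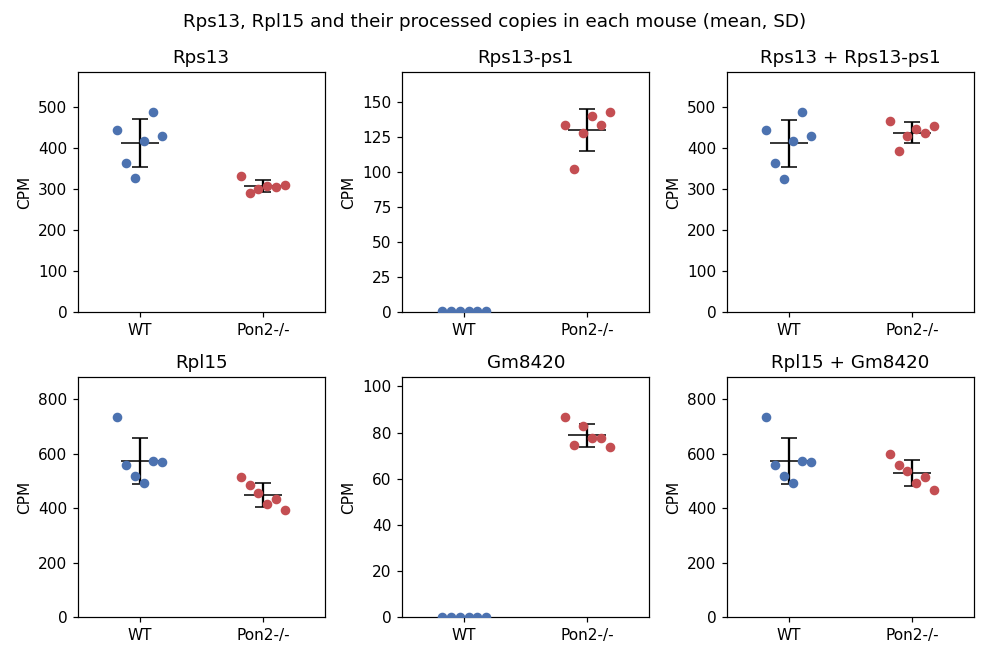
CPM of Rps13, Rpl15, their processed copies Rps13-ps1 and Gm8420, and the sums, in each of 6 WT and 6 Pon2-/- mice, with mean and SD as bars. Rps13-ps1 is at 0.484 to 1.02 CPM in WT and 102 to 143 CPM in Pon2-/- samples, and the summed values of the genotypes overlap.

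Near-identical copies were common among the members. At least 90% identity over at least 50% of the transcript was found for 78 of 92 members, with up to 66 copies, for Rpl21. Of 729 copies outside the member list, 655 had a count and 127 were tested. Of these, 4 passed both thresholds: Rps13-ps1 for Rps13, and Gm8420, Gm5292 and Gm14094 for Rpl15. Gm5292 had 0 to 0.212 CPM in WT and 18.9 to 22.7 CPM in Pon2-/- HSCs, and Gm14094 had 0 to 0.127 and 2.01 to 2.64 CPM. All 4 were higher in Pon2-/- HSCs and lie on different chromosomes. Adding the copies to their members shifted the log2 fold change by more than 0.1 for 2 members, Rps13 and Rpl15. Why these copies differ between the genotypes was not tested.

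Rps4l, a transcribed processed pseudogene related to Rps4x, had the largest fold change of the tested members. It had 15.7, 45.5 and 103 CPM in WT and 0, 5.51 and 23.1 CPM in Pon2-/- HSCs. The ranges overlapped between 15.7 and 23.1 CPM, and WT replicate 1 was the highest. The log2 fold change was -2.45 ± 1.10 (SE, 95% interval -4.82 to -0.08, edgeR adjusted p = 1.00).

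The other variant forms that were tested had smaller fold changes. Rps27l, a p53-responsive relative of Rps27, had 273, 317 and 354 CPM in WT and 166, 254 and 352 CPM in Pon2-/- HSCs, with a log2 fold change of -0.31 ± 0.16 (edgeR adjusted p = 1.00). Rpl7l1, which acts in ribosome assembly, ranged from 175 to 427 CPM in WT and from 159 to 345 CPM in Pon2-/- HSCs. Its values above 300 CPM were in WT replicates 1 to 3 and Pon2-/- replicate 3. Rpl22l1, a paralog of Rpl22, had a log2 fold change of -0.01, Rpl36al of -0.09 and Rps27rt of 0.02. Rpl39l, a form known from testis, was found at 6.81 and 16.5 CPM in WT replicates 4 and 5, at 0.060 CPM in Pon2-/- replicate 1 and at 0 elsewhere. Rpl10l, another testis form, had counts in Pon2-/- replicate 1 alone.

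Further members among the 10 with the smallest p had values as follows. Rpl29 had 165 to 209 CPM in WT and 135 to 167 CPM in Pon2-/- HSCs, with a log2 fold change of -0.24. Rpl23 had 435 to 595 and 372 to 555 CPM, with -0.17. These are proteins of the ribosome's core set, and the genotypes overlapped for each. Rpl21 had a log2 fold change of -0.15. Rpl22, which was the highest of all tested members, had 0.23, with 151 to 318 CPM in WT and 201 to 345 CPM in Pon2-/- HSCs (edgeR adjusted p = 1.00).

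The 10 genes whose loss of a copy is known to cause Diamond-Blackfan anaemia were examined as a group. None of the 10 had an edgeR p below 0.05, against 3.13% of all genes tested, a share that leaves less than 1 gene in a list of 10. Their log2 fold changes ran from -0.12 for Rps24 to 0.03 for Rpl26, with a median of -0.03. Rps19, the gene most often affected in patients, had 1311, 1633 and 1728 CPM in WT and 1444, 1519 and 1706 CPM in Pon2-/- HSCs. Its log2 fold change was -0.03 (95% interval -0.23 to 0.17). Rpl5 and Rpl11, whose free proteins bind Mdm2, had -0.05 (95% interval -0.35 to 0.26) and -0.03 (95% interval -0.26 to 0.21). Rps26 had 0.03, Rps7 -0.02, Rps10 -0.04 and Rpl35a -0.06.

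The share of all gene counts on ribosomal protein genes was 5.34% ± 0.31 (SD, n = 6) in WT and 5.13% ± 0.12 (SD, n = 6) in Pon2-/- HSCs. It ran from 4.81% to 5.68% in WT and from 4.99% to 5.29% in Pon2-/- HSCs, so that all Pon2-/- samples lay inside the WT range. The ratio of 60S to 40S counts was 1.21 ± 0.04 in WT and 1.24 ± 0.04 in Pon2-/- HSCs. Processed copies took 0.068% of counts in WT (0.056% to 0.081%) and 0.087% in Pon2-/- HSCs (0.083% to 0.094%), without overlap. This share includes the 4 copies that passed both thresholds, all higher in Pon2-/- HSCs. A share without these 4 copies was not computed. Mitochondrial ribosomal protein genes took 0.784% and 0.759%.

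**Figure D4:**
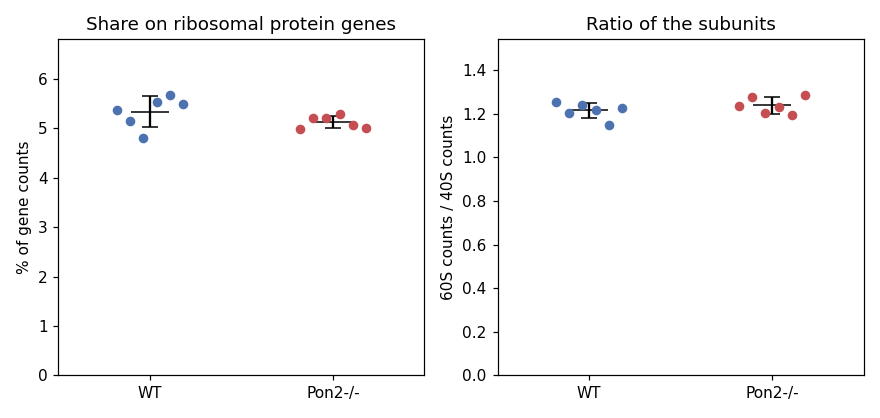
Percent of gene counts on ribosomal protein genes and the ratio of 60S to 40S counts in each mouse, with mean and SD as bars, both axes starting at 0. Shares run from 4.81% to 5.68% in WT and from 4.99% to 5.29% in Pon2-/- samples.

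Samples also differed in the whole set. Of 83 tested members with at least 5 CPM on average, WT replicate 3 had 11 above their own median over the 12 samples, and WT replicate 5 had 71. In Pon2-/- samples, this number was 31 to 51. The median deviation from the gene mean was -0.19 on the log2 scale in WT replicate 3 and 0.17 in WT replicates 4 and 5, and it lay between -0.06 and 0.04 in Pon2-/- samples. WT replicates 4 and 5 had the smallest total counts and WT replicate 3 the largest. The part of depth in this was not tested.

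Ribosomal protein genes varied little between mice. The CV within genotype was 12.3% (median over 86 members), 28.4% over 77 tested mitochondrial ribosomal protein genes and 56.2% over all genes tested. Since spread depends on level, genes of similar CPM were compared as a description. Between 300 and 1000 CPM, the median CV was 11.7% over 49 members and 19.9% over 354 other genes. At 1000 CPM or more, it was 9.93% over 14 members and 19.6% over 34 other genes. Among the 2228 tested genes with at least 100 CPM, 46 of the 100 with the smallest CV were members. Rpl18, a protein of the large subunit, had the smallest CV of all, 5.42%, with 599 to 669 CPM in WT and 595 to 710 CPM in Pon2-/- HSCs.

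**Figure D5:**
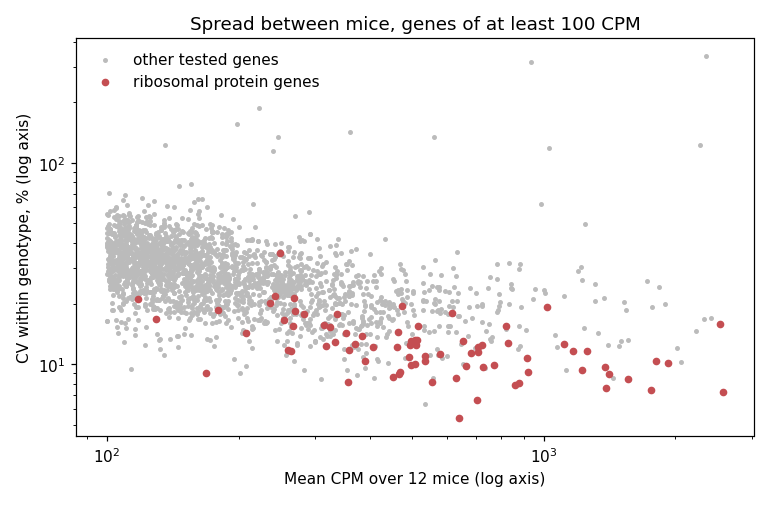
CV within genotype against mean CPM (both log axes) for tested genes of at least 100 CPM up to the highest member, with ribosomal protein genes in red and other genes in grey. Most members lie in the lower part at their level, with Rpl18 lowest at 5.42%.

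Genes that work with the ribosomal proteins were examined from lists. Fau and Rack1, ribosomal proteins outside the name rule, had log2 fold changes of -0.08 and 0.06. None of 14 translation factor genes and none of 21 ribosome biogenesis genes had an edgeR p below 0.05, against 3.13% of all genes tested. In each of the next 3 lists, 1 gene had such a p and is given for that reason, while the lists ran both ways. Of 14 genes for RNA polymerase I, Taf1c, a subunit of its selectivity factor, had 5.86 to 46.7 CPM in WT and 4.65 to 23.7 CPM in Pon2-/- HSCs (log2 fold change -1.42, edgeR adjusted p = 1.00). Of 14 mTORC1, Myc and TOP regulators, Mycn had 128 to 372 CPM in WT and 73.9 to 136 CPM in Pon2-/- HSCs (log2 fold change -1.04, edgeR adjusted p = 0.716, DESeq2 adjusted p = 0.041, where 1.77% of genes passed both thresholds). The log2 fold changes of this list ran from -1.04 to 1.49 with a median of 0.04. Of 7 tested genes of p53 and its targets, Trp53 had 407 to 582 CPM in WT and 574 to 660 CPM in Pon2-/- HSCs (log2 fold change 0.27, edgeR adjusted p = 1.00). This list ran from -0.75 to 0.46 with a median of 0.04. No gene of these lists passed both thresholds with edgeR.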

How the data were processed

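RNA-seq counts of HSCs from 6 WT and 6 Pon2-/- mice were used, and groups were taken from the sample labels. The authors trimmed reads with Trimmomatic 0.36, mapped them to GRCm38.p5 with STAR 2.5.3a and deposited whole-number counts per gene of GENCODE, without normalization. Names, positions and transcripts were taken from a later GENCODE release. How the wells of a mouse were combined is not given in the sources used here.

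Counts were compared in R 4.3.3 with edgeR 4.0.16 (quasi-likelihood test after TMM scaling and filterByExpr, with no term besides genotype), with Benjamini-Hochberg adjustment over the 11848 genes tested. Fold changes are Pon2-/- over WT. Alternatives used DESeq2 1.42.0 and limma 3.58.1, other scaling and filters, counts summed with copies, a replicate block, and leaving out each sample in turn. Copies were found with blastn 2.17.0, and aligned with Biopython 1.88. The procedure was tested on simulated data with larger fold changes than those of most members. That test does not show how well small differences are found. P-values set the difference between the genotypes against the spread between samples of a genotype, each from another mouse. A count of 0 allows up to 3 counts, and such limits cover counting error only.

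The members and lists were chosen with earlier results of these data known. Named members were those called, the 10 with the smallest p, the 6 highest and 6 lowest per length, Rps13 and Rpl15 with their copies, variant forms and genes of Diamond-Blackfan anaemia. Rpl18, Rpl23a, Rpl13a, Rpl35, Rplp2, the X-linked members and the genes of the pathway lists named for their p were chosen after their values were seen, as were the promoter region near the start and the bins of CPM. Some genes that these rules name are not reported here.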

Additional observations from a re-analysis of the deposited data

Results flagged for a closer look

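Among named genes, the share and the subunit ratio, 7 of 75 groups of 6 mice had a sample far from the others. For independent, normally distributed values the rule flags about 1 in 20 groups. That rate need not hold here, since the groups share mice and some genes have counts near 0. Pon2 was at 1.16 CPM in Pon2-/- replicate 5, against 28.4 CPM in the next sample. In WT replicate 1, Rpl15 had 734 CPM (next 574), Rpl4 had 2782 CPM (next 2508) and Rplp0 had 2991 CPM (next 2516). Rpl36al was lowest in WT replicate 2, with 80.1 CPM against 129 CPM in the next sample. Pon2-/- replicate 1 alone of its group had counts for Rpl10l (0.179 CPM) and Rpl39l (0.060 CPM).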

How the results depend on the processing

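In all alternatives, 0 members passed both thresholds, also with DESeq2 and with the FDR alone in edgeR. The median log2 fold change of the members ran from -0.07 to -0.01, which is also the range when leaving out each sample. The genotypes did not overlap for 0 members (0.633% of all genes tested), for 1 without a filter on low counts (Rps13, all genes 0.369%), for 1 with counts summed with copies (Rpl29, all genes 0.589%), and for 0 to 2 when leaving out each sample (Rps13, Rpl15, Rpl29 or Rps27l, all genes 0.802% to 0.942%); the cause was not tested. The difference in the share of counts was -0.21 percentage points, and -0.32 to -0.14 when leaving out each sample. Pon2 ran from -2.27 to -1.88 when leaving out each sample, and was lowest with limma voom (-2.93, adjusted p = 0.400). It passed both thresholds with DESeq2 (-2.13, adjusted p = 0.010), with DESeq2 without Cook's cutoff (-2.13, adjusted p = 0.005), with DESeq2 on counts summed with copies (-2.13, adjusted p = 0.010), which was chosen after seeing the data, and with edgeR without Pon2-/- replicate 5 (-1.88, adjusted p = 0.029). With 95% identity over 80% of the transcript, 36 members had a copy in place of 78.

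Same-numbered samples of the genotypes correlated at 0.001 to 0.043 in their deviations. The highest correlation of each WT sample with a Pon2-/- sample of another number was 0.017 to 0.063. Correlations this low cannot decide whether the numbers pair the mice, and a pairing is not stated in the sources used here. With a replicate block, 0 members passed both thresholds, and Rps13 had -0.41 (adjusted p = 0.990). The intervals of Rpl24, Rpl32l, Rps27rt, Rps3a2 and Rps4l reach beyond a log2 fold change of 1.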
